A study of Mus musculus with 4 samples.

Results

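Ethanol is cleared in steps. Alcohol dehydrogenases, catalase in peroxisomes and the cytochrome P450 CYP2E1 oxidise it to acetaldehyde, aldehyde dehydrogenases turn acetaldehyde into acetate, and acetyl-CoA synthetases join acetate to coenzyme A. The liver does most of this with class I alcohol dehydrogenase, whereas catalase and CYP2E1 are held to form much of the acetaldehyde made inside the brain. The 10 genes described here cover these steps and were chosen by symbol from the 32285 genes of the feature list. They are Adh1, Adh5, Cyp2e1 and Cat for the oxidation of ethanol, Aldh2, Aldh1b1, Aldh1a1 and Aldh9a1 for the oxidation of aldehydes, and Acss1 and Acss2 for the use of acetate. All 10 were listed under 1 identifier each. 9 passed the filter on low counts for comparisons between regions, and Cyp2e1 did not.

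The data were Visium spatial transcriptomes of 4 brain sections from female C57BL/6 mice. Each pairing of age and gavage had 1 library: aged ethanol, young ethanol, aged vehicle and young vehicle. Aged mice were 18 to 20 months old and young mice 3 to 4 months old. Ethanol mice received 3 g/kg by gavage and vehicle mice received water, both as 10 gavages spread over 18 days. Brains were collected 18 hours after the final gavage. Sections of 10 µm came from the left hemisphere, frozen after the meninges had been removed. The labels name the tissue as hippocampal, but the sections also held neocortex, thalamus, hypothalamus and other regions. How many animals stood behind a library was not given in the sources used here. A Visium spot is a small area that can hold several cells, so fewer cells of a type and less RNA per cell cannot be told apart.

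The sections kept 2642 spots for aged ethanol, 2881 for young ethanol, 2703 for aged vehicle and 2716 for young vehicle, with 45995677 to 58305713 unique molecular identifiers (UMIs, each standing for 1 captured transcript). Of 4159 spot barcodes, 1200 occurred in all 4 libraries, since the slides carry a common barcode layout. Clusters of spots gave 11 regions, and each region cluster had at least 4 of its fixed markers 2-fold or more above the rest. Region markers were among the features that formed the clusters, so this is not an independent test of the names. Neocortex joined a cluster with upper layer markers and a cluster with layer 6 markers. Other clusters with cortical markers were given no region name. The region called meninges here was a cluster of 52 to 81 spots per section. It was named by markers of meninges and large vessels together. The level of section differed with the gavage label. Thalamus made up 11.8% and 11.6% of spots in the aged and young ethanol libraries, against 5.44% and 5.3% in the aged and young vehicle libraries. A cluster with habenula genes had 26 and 29 spots in the aged and young ethanol libraries and 0 in either vehicle library, and choroid plexus had 11 and 12 spots in the ethanol libraries and 24 and 25 in the vehicle libraries.

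On the GRCm38.p6 assembly, RefSeq places both alcohol dehydrogenases on chromosome 3, with Adh1 at chr3:138277585-138290698 and Adh5 at chr3:138437200-138455499. Cyp2e1 lies at chr7:140763819-140774990 and Cat at chr2:103453904-103485153. Aldh2 lies at chr5:121566027-121593824, Aldh1b1 at chr4:45799022-45804608, Aldh1a1 at chr19:20492583-20643463 and Aldh9a1 at chr1:167349963-167368530. Acss1 and Acss2 share a chromosome, at chr2:150618111-150668240 and chr2:155518043-155562743. The 250 bases upstream of a RefSeq start site are shown for the 4 enzymes of ethanol oxidation, because these split into genes near 0 UMIs in most regions (Adh1, Cyp2e1) and genes read in every region (Adh5, Cat). For Adh5 the second of its annotated start sites is shown. Each runs 5′ to 3′ towards the start site, and capitals mark matches on either strand to 4 motifs, which are spelled out after the sequences.
Adh1, chr3:138277335-138277584, plus strand: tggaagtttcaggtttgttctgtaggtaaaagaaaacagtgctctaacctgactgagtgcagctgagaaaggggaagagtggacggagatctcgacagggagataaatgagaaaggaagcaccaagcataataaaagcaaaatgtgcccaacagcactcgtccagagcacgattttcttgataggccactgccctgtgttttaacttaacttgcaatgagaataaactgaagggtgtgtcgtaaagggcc
Cyp2e1, chr7:140763569-140763818, plus strand: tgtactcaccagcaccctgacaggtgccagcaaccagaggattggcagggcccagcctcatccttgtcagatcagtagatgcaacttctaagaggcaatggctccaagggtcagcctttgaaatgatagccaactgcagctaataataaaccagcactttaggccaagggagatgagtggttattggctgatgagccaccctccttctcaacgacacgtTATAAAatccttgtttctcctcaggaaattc
Adh5, chr3:138442843-138443092, plus strand: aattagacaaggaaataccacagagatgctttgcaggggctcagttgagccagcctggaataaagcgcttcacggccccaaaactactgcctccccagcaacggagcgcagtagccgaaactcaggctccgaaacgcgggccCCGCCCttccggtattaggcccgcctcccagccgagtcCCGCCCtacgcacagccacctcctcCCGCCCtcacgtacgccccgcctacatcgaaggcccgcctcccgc
Cat, chr2:103485154-103485403, minus strand: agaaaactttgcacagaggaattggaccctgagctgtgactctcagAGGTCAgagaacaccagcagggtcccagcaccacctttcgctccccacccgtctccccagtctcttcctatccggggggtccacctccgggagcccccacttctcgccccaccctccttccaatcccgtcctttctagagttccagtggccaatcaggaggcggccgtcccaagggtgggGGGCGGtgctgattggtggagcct

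The motifs were TATAAA (the TATA box), the motif GGGCGG (a GC box), then TGACNNNGC (the core of the antioxidant response element) and AGGTCA, which nuclear receptors bind, and in these windows none overlapped another. The Cyp2e1 window held TATAAA 31 bases before the start, and the Adh1 window held none of the 4 motifs. The Adh5 window held GGGCGG 3 times, 108, 70 and 45 bases before the start, and Cat held it once, 24 bases before the start, beside an AGGTCA 204 bases before it. GC content was 44.8% for Adh1 and 48.8% for Cyp2e1, and 63.6% for Adh5 and 62% for Cat. The window before the other Adh5 start site, not shown, was unlike the one shown: it had a GC content of 45.2%, no GGGCGG and a TATAAA 207 bases before the start. The GC values therefore depended on the start site taken for Adh5. The median over 27025 promoters was 52%. GGGCGG occurred before at least 1 start site of 5 of the 9 genes with a promoter entry (Adh5, Cat, Aldh1b1, Acss1 and Acss2) and in 32.9% of all promoters. TATAAA occurred in 13% of all promoters, TGACNNNGC in 10.1% and AGGTCA in 13.8%. These matches describe letters in a window and not binding.

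Among the enzymes of ethanol oxidation, Adh1, the class I alcohol dehydrogenase, was close to absent outside the choroid plexus. Over the 4 sections 64 Adh1 UMIs were read, and 29 of them (45.3%, exact 95% interval 32.8 to 58.3%) lay in choroid plexus spots, which were 0.658% of all spots. The choroid plexus held 9 and 3 Adh1 UMIs in the aged and young ethanol libraries and 6 and 11 in the aged and young vehicle libraries. Neocortex held 0 and 1 in the aged and young ethanol libraries and 1 and 0 in the aged and young vehicle libraries. Choroid plexus thus had UMIs in every library. Summed over libraries this was 12 CPM (UMIs of the gene scaled to a total of 1000000) in choroid plexus against 0.0468 CPM in neocortex, a ratio of 256 with a counting interval of 64.7 to 2210. Meninges (6 UMIs) and striatum (5 UMIs) also passed the edgeR test over neocortex (2 UMIs), with adjusted p of 0.000286 and 0.0055. The striatal UMIs were 1 each in aged and young ethanol, 2 in aged vehicle and 1 in young vehicle. Summed choroid plexus markers in striatum were 1190 and 1300 CPM in the aged and young ethanol libraries and 21900 and 3810 CPM in the aged and young vehicle libraries, against 595 and 478 CPM in neocortex of the aged and young ethanol libraries and 765 and 199 CPM in neocortex of the aged and young vehicle libraries. Their part in the striatal Adh1 count was not tested. These calls rested on few molecules: without the aged ethanol library the meninges contrast had an adjusted p of 0.119. Adh1 passed the filter on low counts through its choroid plexus sums, and with regions by marker score it was not tested. No Adh1 UMI was read in CA1, CA3 or the dentate granule layer.

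Cyp2e1, the ethanol-inducible P450, gave 31 UMIs over the 4 sections. The aged ethanol section held 20 and the young ethanol section 8, against 0 in the aged vehicle section, where 3 UMIs would stand for 0.0652 CPM, and 3 in the young vehicle section. Both ethanol sections were above both vehicle sections. No library reached the 50 UMIs set for a comparison, so the difference is given as counts alone. The summed level of the 3 hepatocyte markers, which would mark RNA from liver, was 4.8 and 4.17 CPM in the aged and young ethanol sections and 3.91 and 3.39 CPM in the aged and young vehicle sections, and its part in the counts was not tested. In the named regions Cyp2e1 UMIs were spread thinly, with no more than 4 in any region of any library and none in CA1, the dentate granule layer, striatum, choroid plexus or ependyma.

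Adh5, the class III alcohol dehydrogenase that mainly oxidises the glutathione adduct of formaldehyde, was read in every region. Its level was 111 ± 25.3 CPM in ependyma, 102 ± 8.26 CPM in white matter and 95.2 ± 17.7 CPM in choroid plexus, against 51.2 ± 3.47 CPM in neocortex (SD, n = 4 libraries of differing age and gavage). White matter had 96.6 and 95.6 CPM in the aged and young ethanol libraries and 113 and 104 CPM in the aged and young vehicle libraries, with no overlap with neocortex at 47.8 to 54.7 CPM. CA1, at 53.2 ± 10.9 CPM, overlapped neocortex. Adh5 was higher than neocortex in white matter (log2 ratio 1.26, SE 0.09), choroid plexus (1.21, SE 0.13) and ependyma (1.18, SE 0.17). The ependyma call fell under 2-fold without the young vehicle library (log2 ratio 0.96), and with regions by marker score it was 0.91. The choroid plexus value was 0.86 when counts were scaled to totals alone and 0.68 with regions by marker score, and the white matter value was 0.99 with total scaling. Each of these is under 2-fold on the log2 scale.

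Cat, peroxisomal catalase, which can oxidise ethanol with hydrogen peroxide, was highest in choroid plexus. Choroid plexus had 129 and 128 CPM in the aged and young ethanol libraries and 142 and 152 CPM in the aged and young vehicle libraries. White matter followed with 87.8 and 94.2 CPM in the aged and young ethanol libraries and 125 and 106 CPM in the aged and young vehicle libraries. These 2 regions did not overlap each other or any other region, and neocortex had the lowest mean, with a range of 27.7 to 35.3 CPM. The log2 ratio over neocortex was 2.52 (SE 0.12, adjusted p = 8.62e-26) in choroid plexus and 2 (SE 0.09, adjusted p = 3.74e-26) in white matter by edgeR. Ependyma (1.07) and meninges (1.06) were called close to the 2-fold limit. The ependyma value was 0.87 to 0.98 without the young vehicle, young ethanol or aged ethanol library in turn, and the meninges value was under 2-fold without aged ethanol (adjusted p = 1.97e-08) and was 0.82 with regions by marker score.

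**Figure D1:**
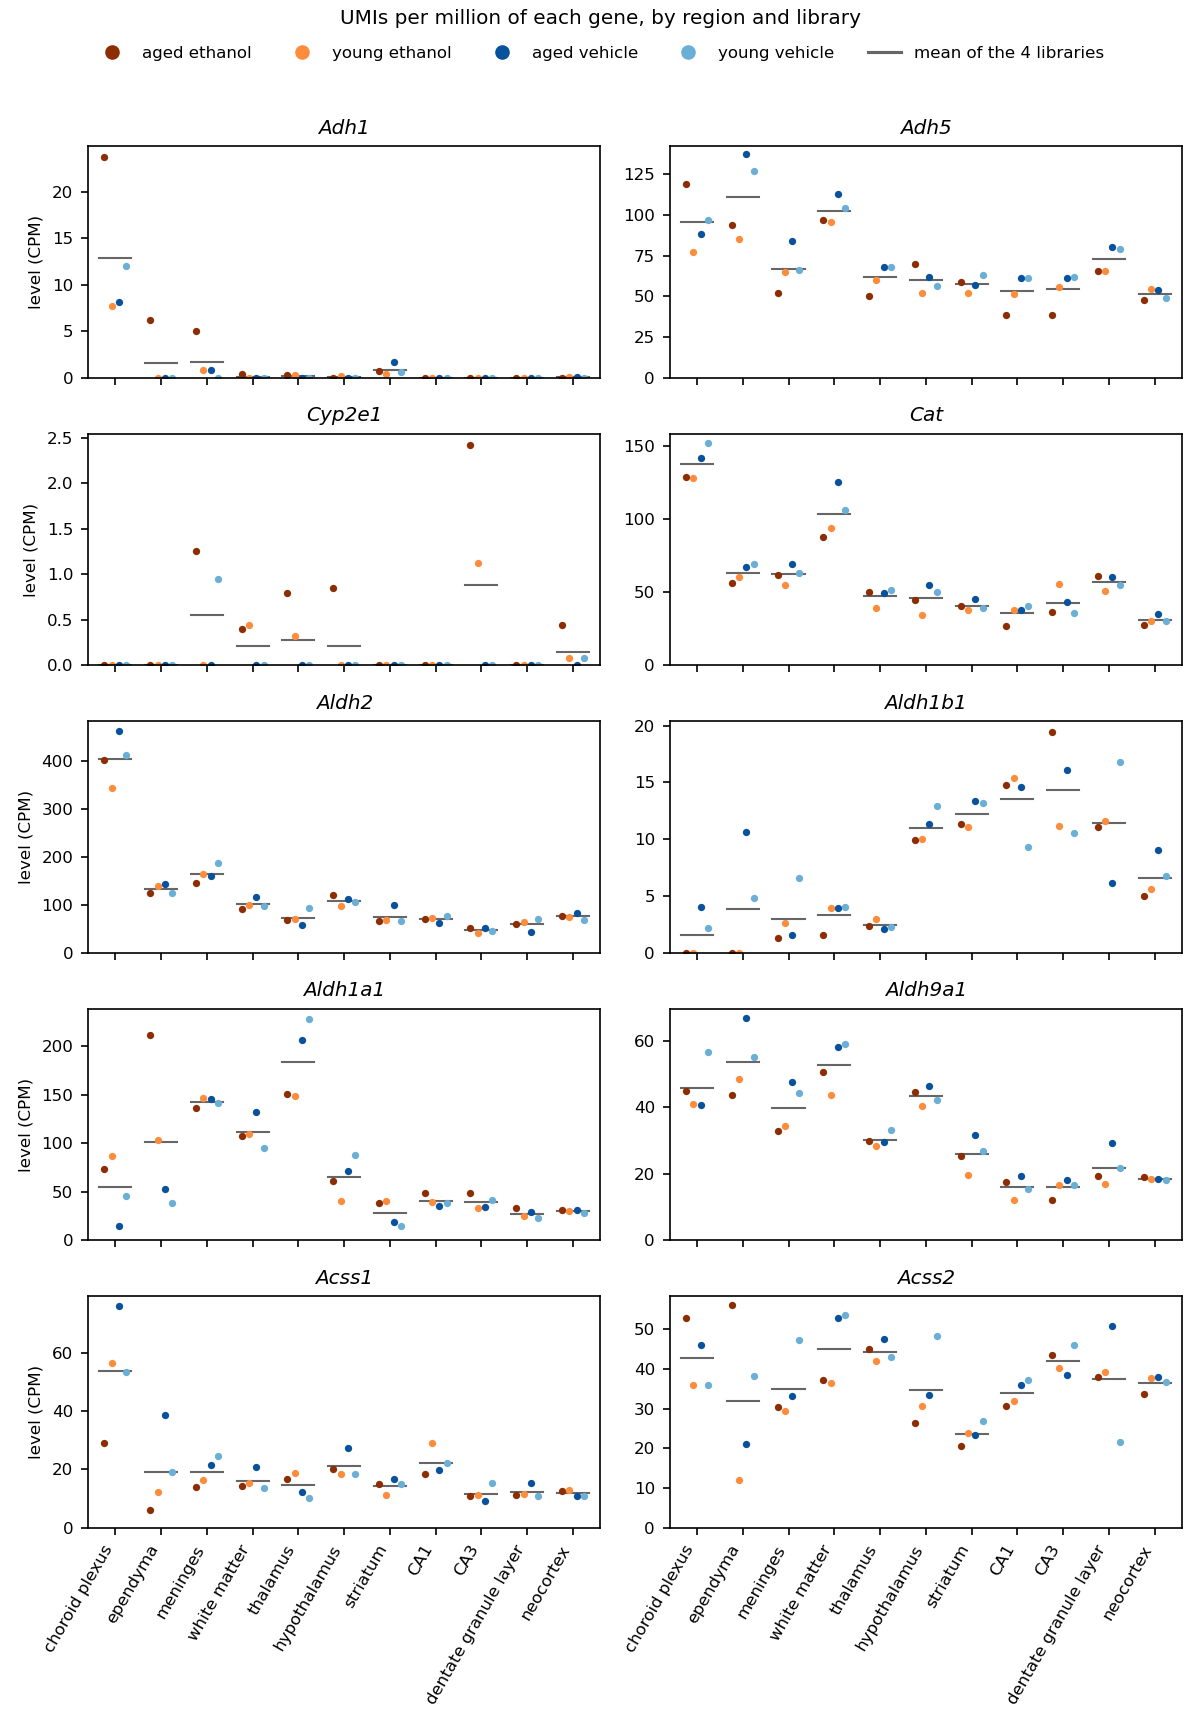
Level of each gene in CPM (vertical axis, linear, from 0) in 11 regions (horizontal axis). Points are the 4 libraries and the grey line is their mean. Among these 11 named regions, Aldh2 and Cat stand highest in choroid plexus, Aldh1a1 in thalamus, and Aldh1b1 in the hippocampal pyramidal layers and striatum.

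Aldh2, the mitochondrial enzyme that clears most acetaldehyde, had its highest level in choroid plexus. It reached 401 and 343 CPM there in the aged and young ethanol libraries and 461 and 412 CPM in the aged and young vehicle libraries, against 77.5 and 75.4 CPM in neocortex of the aged and young ethanol libraries and 83.3 and 68.7 CPM in the aged and young vehicle libraries. Meninges came next at 163 ± 17 CPM and ependyma at 133 ± 10.2 CPM (SD, n = 4), and choroid plexus, meninges and ependyma were each apart from all regions below them. Neocortex, striatum, thalamus and CA1, at means of 70.3 to 76.2 CPM, overlapped. The lowest level was 47.4 ± 5.26 CPM in CA3, the whole range below CA1, with a log2 ratio of CA3 over CA1 of -0.56 (SE 0.15, adjusted p = 0.00348). Over neocortex the log2 ratio was 2.76 (SE 0.1, adjusted p = 1.52e-29) in choroid plexus and 1.16 (SE 0.1) in meninges.

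Aldh1a1, the cytosolic enzyme that also makes retinoic acid from retinaldehyde, had another pattern. It was highest in thalamus, at 151 and 149 CPM in the aged and young ethanol libraries and 206 and 228 CPM in the aged and young vehicle libraries, against 28.3 to 31 CPM in neocortex. Meninges had 143 ± 4.73 CPM and white matter 111 ± 15.2 CPM (SD, n = 4). Thalamus lay above all regions but the ependyma, whose range (38.3 to 212 CPM) was the widest and rested on 15 to 34 UMIs a library. Its log2 ratio over neocortex was 2.66 in thalamus (SE 0.17, adjusted p = 6.87e-20), 2.31 in meninges (SE 0.19) and 2.15 in white matter (SE 0.18). Ependyma (1.46), hypothalamus (1.13) and choroid plexus (1.03) were also called, but these calls turned on single libraries. Without aged ethanol, ependyma had a log2 ratio of 0.84 and an adjusted p of 0.13. Without young vehicle the hypothalamus value was 0.92, and it was 0.43 with regions by marker score. Choroid plexus was at 0.66 to 0.92 without young ethanol, aged ethanol or young vehicle in turn, at 0.69 with total scaling and at 0.34 (adjusted p = 0.281) with regions by marker score. Mouse Aldh1a7 is a close copy of Aldh1a1. It was listed with 0.536 to 0.8% of the UMIs of the pair, and reads shared by the copies cannot be assigned here.

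Clusters without a region name placed further Aldh1a1 in the forebrain. A cluster led by Tnnt1, Prkcd and Eps8l2, of which Tnnt1 and Prkcd are also among the thalamus markers, had the highest mean Aldh1a1 level of clusters with at least 10 spots per library. It had 265 and 276 CPM in the aged and young ethanol libraries and 272 and 255 CPM in the aged and young vehicle libraries, so that its ethanol and vehicle libraries overlapped. A cluster led by C1ql2 and Lct, genes of the dentate gyrus, had 109 and 115 CPM in the aged and young ethanol libraries and 86.6 and 107 CPM in the aged and young vehicle libraries, whereas the named dentate granule layer had 22.8 to 33.2 CPM. Regions set by marker score in place of clusters gave a dentate log2 ratio over neocortex of 1.03 (adjusted p = 3.46e-05), against -0.28 (adjusted p = 0.455) with clusters.

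**Figure D2:**
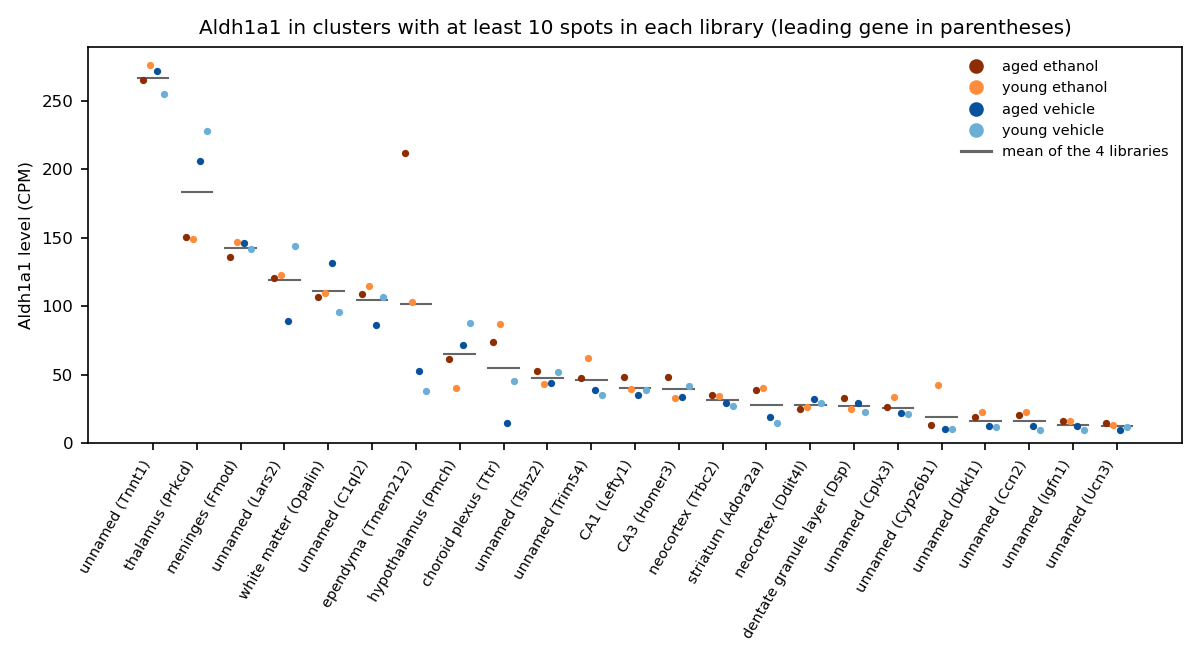
Aldh1a1 level in CPM (vertical axis, linear, from 0) in clusters of at least 10 spots in every library, 1 of them not shown, ordered by mean and named by region and leading gene. Points are the 4 libraries, and the cluster led by Tnnt1 has all 4 between 255 and 276 CPM.

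Aldh9a1, a cytosolic enzyme that oxidises aminoaldehydes and takes part in carnitine and GABA synthesis, was called higher than neocortex in 5 regions. Ependyma, white matter, choroid plexus and hypothalamus had means of 43.4 to 53.6 CPM and overlapped, and neocortex had 18.4 ± 0.42 CPM (SD, n = 4). In white matter it had 50.7 and 43.8 CPM in the aged and young ethanol libraries and 58 and 59 CPM in the aged and young vehicle libraries, all above the neocortex values of 18.1 to 19 CPM. Its log2 ratio over neocortex was 1.78 in white matter (SE 0.09, adjusted p = 1.93e-23), 1.68 in choroid plexus, 1.57 in ependyma, 1.27 in hypothalamus and 1.17 in meninges. The hypothalamus value was 0.89, under 2-fold, with regions by marker score. CA1 (16.1 ± 3.14 CPM) and CA3 (15.9 ± 2.59 CPM) overlapped neocortex.

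Aldh1b1, a mitochondrial aldehyde dehydrogenase related to Aldh2, ran the other way. It had 14.3 ± 4.23 CPM in CA3, 13.5 ± 2.85 CPM in CA1 and 12.2 ± 1.19 CPM in striatum, against 6.61 ± 1.76 CPM in neocortex and 2.43 ± 0.36 CPM in thalamus (SD, n = 4). CA1 held 32 and 27 UMIs in the aged and young ethanol libraries and 28 and 18 in the aged and young vehicle libraries, so counts were low. These are levels in named regions. An unnamed cluster led by Cplx3 and Ccn2, best matched by layer 6b markers, had more in most libraries. It had 26.5 and 7.09 CPM in aged and young ethanol and 24.3 and 27.5 CPM in aged and young vehicle, from 5 to 31 UMIs a library. Every library had less in thalamus, at 2.11 to 2.95 CPM, than in neocortex, at 5.03 to 9.03 CPM. The clusters joined as neocortex differed. That of layer 6 had 7.71 and 8.97 CPM in aged and young ethanol and 13.1 and 9.4 CPM in aged and young vehicle. It overlapped CA1, at 9.3 to 15.4 CPM. That of upper layers had 1.52 and 3.17 CPM in aged and young ethanol and 5.42 and 4.27 CPM in aged and young vehicle. It overlapped thalamus. The log2 ratio over both neocortex clusters together was 1.1 in CA3, 1.06 in CA1 and 1 in striatum, and -1.21 in thalamus (SE 0.27, adjusted p = 0.000198 by edgeR). Aldh1b1 was also lower by edgeR in choroid plexus (-1.33, adjusted p = 0.0419) and meninges (-1.05, adjusted p = 0.0213). Choroid plexus held 0 UMIs in either ethanol library and 3 and 2 in the aged and young vehicle libraries. Meninges held 1 and 3 in the aged and young ethanol libraries and 2 and 7 in the aged and young vehicle libraries. The thalamus call held without any library, but each of the other 5 did not. Without aged ethanol the log2 ratio was 0.87 in CA3, 0.89 in CA1 and 0.89 in striatum, and the adjusted p in choroid plexus was 0.059. Without aged vehicle the meninges value was -0.64 (adjusted p = 0.253). With regions by marker score all 5 ended: the values were 0.54 in CA3 (adjusted p = 0.0509), 0.79 in CA1, 0.9 in striatum, -0.02 in choroid plexus (adjusted p = 0.966) and -0.69 in meninges.

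The acetyl-CoA synthetases differed in how far they varied. Acss1, the mitochondrial form, had 29 and 56.4 CPM in choroid plexus of the aged and young ethanol libraries and 76 and 53.4 CPM in the aged and young vehicle libraries. Neocortex lay at 11 to 13.1 CPM and did not overlap. The log2 ratio of choroid plexus over neocortex was 2.59 (SE 0.2, adjusted p = 1.52e-16). Within the hippocampus Acss1 averaged 12.2 ± 2.17 CPM in the dentate granule layer against 22.4 ± 4.73 CPM in CA1 (SD, n = 4), with a log2 ratio of -1.09 (SE 0.26, adjusted p = 0.00103) and ranges that did not overlap. That call fell under 2-fold without young ethanol (-0.92) and with total scaling (-0.89), and with regions by marker score the value was -0.27 (adjusted p = 0.344). CA3 over CA1 was -0.92 (adjusted p = 0.00586), just under the fold limit. Acss2, the form in cytosol and nucleus that feeds histone acetylation, was called in none of the 12 contrasts by edgeR, although 4 passed the adjusted p without the fold limit. Its highest region mean was 1.9 times the lowest, from 23.7 CPM in striatum to 45 CPM in white matter.

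**Figure D3:**
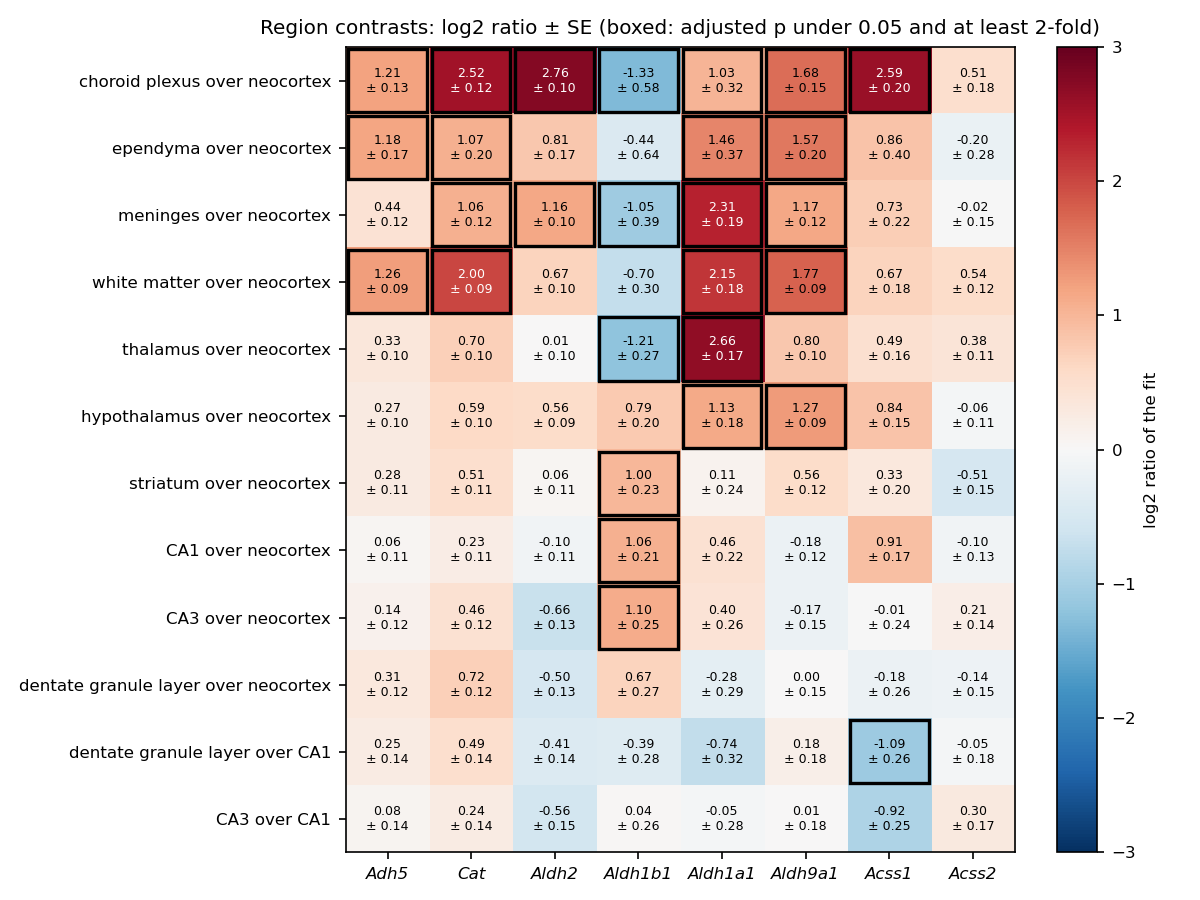
Log2 ratio and SE of 8 genes (horizontal) in 12 region contrasts (vertical) from the edgeR fit, with red for higher and blue for lower in the region named before "over". Boxes mark calls. Aldh1b1 is boxed in blue in thalamus, choroid plexus and meninges, where other genes are boxed in red, and Acss2 has no box.

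Over 12 contrasts of 9 genes there were 31 calls at an adjusted p under 0.05 and at least 2-fold, 27 higher and 4 lower. The share of all 11491 genes called the same way is given beside each count. The choroid plexus had 7 genes higher (21.4% of all genes) and 1 lower (18%). Those 7 include Adh1, which passed the filter on low counts through its choroid plexus sums (7.69 to 23.7 CPM). Its call there was therefore not independent of the filter. Meninges had 5 higher (13.8%) and 1 lower (4.93%). White matter had 4 higher (17.1%), ependyma 4 higher (16%) and hypothalamus 2 higher (7.39%). Thalamus had 1 higher (6.53%) and 1 lower (7.14%). Striatum had 2 higher (5.27%), CA1 had 1 higher (3%) and CA3 had 1 higher (3.32%). Dentate over CA1 had 1 lower (4.67%). No gene was called by edgeR in dentate over neocortex, where 14% of genes were called in either direction and 4 members had an unadjusted p under 0.05, or in CA3 over CA1, where 5.37% were called and 2 members had such a p. DESeq2 called none in these either. Over all contrasts DESeq2 lost the call of Aldh1b1 in choroid plexus (adjusted p = 0.0691) and added Adh1 in ependyma (adjusted p = 0.003). That added call rested on 1 UMI in aged ethanol, with 0 in young ethanol, aged vehicle and young vehicle. With regions by marker score, 18 members' calls were made and 16 of 28 comparable calls held. Adh1 was not tested there, so its 3 calls had no counterpart. The median log2 ratio of the 9 genes was 1.68 in choroid plexus, 1.07 in ependyma, 1.06 in meninges and 0.85 in white matter. Medians over all genes were 0.03, -0.04, -0.05 and 0.06 in the same order. The white matter median was the value of Adh1 itself (SE 1.14), which rested on 1 UMI in white matter, so it is imprecise. Summed oligodendrocyte markers (8 of 8 read in every library) were 28100 to 32700 CPM in ependyma spots and 42100 to 48900 CPM in white matter, against 2720 to 3370 CPM in neocortex. Their part in the ependyma values was not tested.

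Members varied together to different degrees over the 44 sums of a region in a library. Adh5 and Cat had the highest correlation of log2 CPM (Pearson r = 0.778), followed by Adh5 with Aldh9a1 (0.753), Cat with Aldh2 (0.721) and Aldh2 with Acss1 (0.715). Aldh1b1 correlated below 0 with each of the other 7 genes, down to -0.635 with Aldh1a1. Acss2 stayed between -0.148 and 0.248. Among 11248 genes, those most like Adh5 were Acaa1a (0.887), Ift43 (0.857) and Cd9 (0.847). For Cat they were Slc4a2 (0.862), Atp6v0e (0.861) and Lamp2 (0.854). For Aldh2 they included Ace (0.936) and Cd164 (0.925). Aldh1a1 was most like Kcnj10 (0.833), Tom1 (0.83) and Sash1 (0.816), and Aldh9a1 like Tns3 (0.927), Cd81 (0.925) and Rdx (0.91). Aldh1b1 was most like Cdc7 (0.847), Npy5r (0.839) and Timm8b (0.83). Acss1 was most like Apeh (0.751), Bsg (0.735) and Ccnd3 (0.729), and Acss2 like 1700123O20Rik (0.67), Hexim1 (0.644) and Ergic2 (0.643). The sums share libraries, depth and region makeup, so these values are descriptions.

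Of 46 other genes of ethanol, aldehyde and acetate metabolism, 38 could be tested between regions. No UMI of Adh4 or Adh6a was read in any section, Adh6b had 3 and Adh7 had 14. Beside each count of pathway genes stands the share of all genes called the same way. White matter had 11 of the 38 higher (17.1% of all genes) and 2 lower (14%) than neocortex, led by Slc25a13 (3.91, the aspartate-glutamate carrier of the malate-aspartate shuttle), Acss3 (3.06, a mitochondrial acyl-CoA synthetase), Pld1 (3.05, a phospholipase D, the enzyme class that can form phosphatidylethanol) and Aldh1a2 (2.54). Choroid plexus had 12 higher (21.4%) and 3 lower (18%), led by Acss3 (5.82), Slc25a13 (4.17), Aldh1a2 (2.74) and Pld1 (2.56). Ependyma had 9 higher (16%) and 5 lower (13.5%), led by Acss3 (4.73), Slc25a13 (2.65), the monocarboxylate transporter Slc16a1 (2.29) and Pld2 (2.07). Acss3 and Slc25a13 had few UMIs in neocortex (0 to 3 and 7 to 20 a library), so their ratios are imprecise.

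Meninges had 11 of the 38 higher (13.8% of all genes) and 1 lower (4.93%), led by Aldh1a2, a retinaldehyde dehydrogenase, at 6.97 on the log2 scale (adjusted p = 8.49e-31). Aldh1a2 had 116 and 122 CPM in meninges of the aged and young ethanol libraries and 163 and 137 CPM in the aged and young vehicle libraries, against 0.733 to 1.27 CPM in neocortex. Acss3 (4.29), Pld1 (2.66) and the sulfotransferase Sult1a1 (2.4) followed. Hypothalamus had 6 higher (7.39%) and 2 lower (6.66%), led by Aldh3b2 (2.57), Acss3 (2.54), the glycerol-3-phosphate dehydrogenase Gpd1 (-2.14) and the transporter Slc16a7 (-1.7). Thalamus had 4 higher (6.53%), which were Acss3 at 2.48, Pld1 at 1.53, Slc25a13 at 1.26 and Pld2 at 1.04. Striatum had 2 higher (5.27%), Slc25a13 at 1.71 and Pld2 at 1.2. CA1 had 2 lower (5.06%), CA3 had 1 lower (5.95%), and the dentate granule layer had 2 lower (8.28%) and 1 higher (5.68%). Aldh1l1, the folate enzyme used as an astrocyte marker, was lower than neocortex in CA1 (-1.18), CA3 (-1.35) and the dentate granule layer (-1.69), Aldh3b1 was lower in CA1 (-1.14), and in the dentate granule layer Pld1 was lower (-1.85) and Gpd1 higher (1.21). Dentate over CA1 had 2 lower (4.67%), Pld1 (-1.77) and Slc16a1 (-1.03).

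The design also pairs ethanol with vehicle at each age. With 1 library in each group these are differences between sections, with no test, and the intervals given cover counting error only. Over the whole section no member reached 2-fold in either pair, where 1.68% of genes did in aged mice and 2.19% in young mice. Of the 8 genes with enough UMIs, Aldh1a1 was above 1 and the other 7 below 1 at both ages. This split was the same for totals without mitochondrial genes, median-of-ratios scaling, all spots and regions at equal weight. The median log2 ratio of the 8 was -0.17 in aged mice and -0.08 in young mice, against -0.07 and 0 for all genes.

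Aldh1a1 had 67 CPM in aged ethanol against 61.2 CPM in aged vehicle (ratio 1.09, interval 1.04 to 1.15), and 68.8 CPM in young ethanol against 56.2 CPM in young vehicle (1.22, 1.17 to 1.28). Giving each region equal weight changed the log2 ratios to 0.29 in aged mice, against 0.13 by sums, and to 0.04 in young mice, against 0.29. The share of thalamus, the region highest in Aldh1a1, was larger in the ethanol sections, as given above, and its part in the sum was not separated further. Cat had 39.5 CPM in aged ethanol against 48.7 CPM in aged vehicle (0.811, 0.763 to 0.863), and 39.8 CPM in young ethanol against 43.9 CPM in young vehicle (0.906, 0.855 to 0.96). Aldh1b1 had 7.15 CPM in aged ethanol against 9.09 CPM in aged vehicle (0.786, 0.68 to 0.909), and 7.55 CPM in young ethanol against 9.22 CPM in young vehicle (0.818, 0.718 to 0.933). Summed choroid plexus markers, which mark the region highest in Cat, were 2000 and 1480 CPM in the aged and young ethanol sections against 6170 and 5160 CPM in the aged and young vehicle sections, and their part was not tested. Aldh2 had 75.3 CPM in aged ethanol against 85.5 CPM in aged vehicle (0.881, 0.842 to 0.922), and 78.4 CPM in young ethanol against 79.6 CPM in young vehicle (0.985, 0.944 to 1.03). Adh5, Aldh9a1, Acss1 and Acss2 had ratios of 0.877 to 0.956 at either age.

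**Figure D4:**
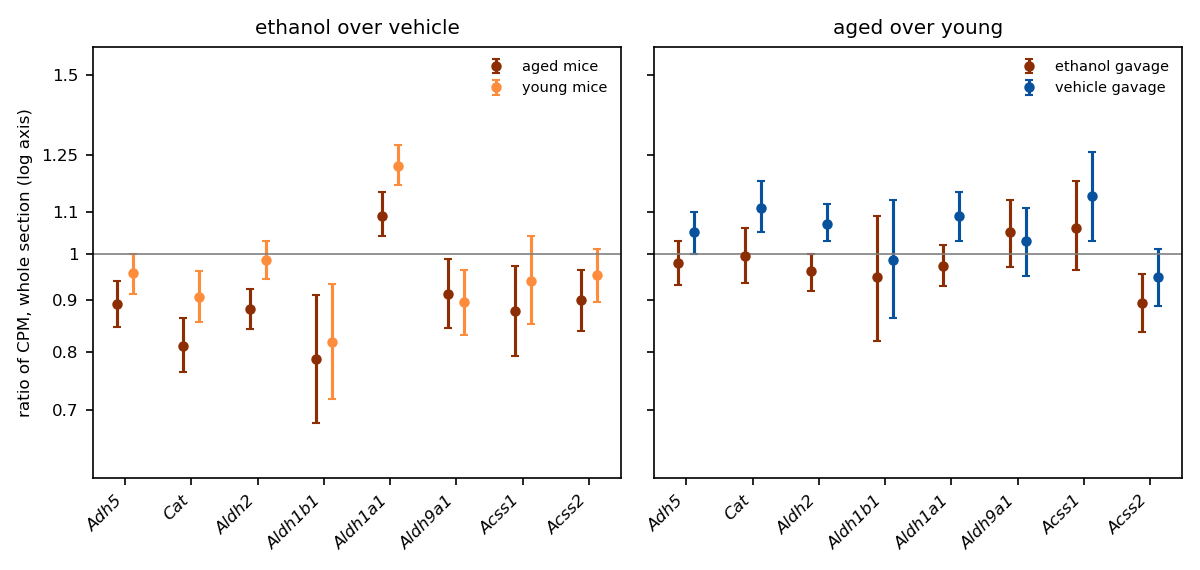
Ratio of whole-section CPM for 8 genes (vertical, log axis) with exact 95% counting intervals. The left panel sets ethanol over vehicle in aged and young mice and the right panel aged over young for each gavage. Aldh1a1 is the gene above 1 in both ages on the left.

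Age differed less. Among the 8 genes with enough UMIs, aged over young gave no 2-fold ratio under either gavage. Of all genes with enough UMIs, 0.492% reached it in ethanol mice and 0.357% in vehicle mice. In ethanol mice the ratios ran from 0.893 for Acss2 (0.836 to 0.954) to 1.06 for Acss1 (0.963 to 1.18). In vehicle mice 6 of 8 genes were above 1, the highest being Acss1 at 17.2 CPM in aged vehicle against 15.1 CPM in young vehicle (1.14, 1.03 to 1.26) and Cat at 48.7 CPM against 43.9 CPM (1.11, 1.05 to 1.18). In ethanol mice the number above 1 was 2 of 8 by sums, 5 of 8 with median-of-ratios scaling and 6 of 8 with regions at equal weight, so no direction is given for the set.

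Within regions, 4 ratios met the rule of 2-fold with 50 UMIs in the library with more, all of ethanol over vehicle. With regions by marker score, 1 of the 4 was kept (Aldh1a1 in hypothalamus of young mice). Aged pairs had 55 ratios with enough UMIs and young pairs 58, and over the section and regions together 1.62% of gene ratios in aged mice and 1.52% in young mice met the rule. In striatum Aldh1a1 was higher at both ages, at 38.9 CPM in aged ethanol against 19.2 CPM in aged vehicle (2.02, 1.22 to 3.45) and at 40.3 CPM in young ethanol against 15 CPM in young vehicle (2.68, 1.7 to 4.38). In striatum 0.879% of genes met the rule as higher in aged mice and 0.755% in young mice. The counts were 55 against 23 UMIs in aged mice and 98 against 24 UMIs in young mice, and both ethanol values lay above both vehicle values. Summed microglial markers in striatum were 467 and 489 CPM in the aged and young ethanol libraries against 288 and 344 CPM in the aged and young vehicle libraries. Choroid plexus markers there were 1190 and 1300 CPM in the aged and young ethanol libraries against 21900 and 3810 CPM in the aged and young vehicle libraries, and the striatal cluster had 86 and 137 spots against 58 and 78. The part of these in the striatal ratios was not tested. With regions by marker score the log2 ratios were 0.94 in aged mice, against 1.02, and 0.98 in young mice, against 1.42, so that both fell under 2-fold.

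In hypothalamus Aldh1a1 was lower in young mice, at 40.8 CPM in young ethanol against 87.9 CPM in young vehicle (0.464, 0.38 to 0.567), where 0.565% of genes met the rule as lower. In aged mice it had 61.3 CPM in aged ethanol against 71.6 CPM in aged vehicle, so that both vehicle libraries were above both ethanol libraries. Summed microglial markers in hypothalamus were 424 and 331 CPM in the aged and young ethanol libraries against 284 and 242 CPM in the aged and young vehicle libraries. In the same order, astrocyte markers were 2680 and 2250 CPM against 2990 and 2540 CPM. Endothelial markers were 214 and 202 CPM against 228 and 267 CPM. The part of these cell types in the hypothalamus ratios was not tested. In the named thalamus cluster the ratio was 0.731 (0.642 to 0.834) in aged mice and 0.655 (0.582 to 0.739) in young mice. The unnamed cluster led by Tnnt1 and Prkcd, also best matched by thalamus markers, did not share this. Its Aldh1a1 level was 265 and 276 CPM in the aged and young ethanol libraries against 272 and 255 CPM in the aged and young vehicle libraries. Summed oligodendrocyte markers in the named thalamus cluster were 6390 and 7060 CPM in the aged and young ethanol libraries against 9080 and 9090 CPM in the aged and young vehicle libraries. Their part in the thalamus ratios was not tested. In ependyma Aldh1a1 had 34 UMIs in aged ethanol against 15 in aged vehicle and 17 in young ethanol against 16 in young vehicle, under the 50 UMIs required. With regions by marker score the ependyma had enough and met the rule at both ages, with 62 UMIs in aged ethanol against 38 in aged vehicle (log2 ratio 1.56) and 66 in young ethanol against 54 in young vehicle (1.14), and so did the choroid plexus of aged mice (57 against 40 UMIs, 1.54). Neocortex showed no difference beyond counting error, with 30.8 CPM in aged ethanol against 31 CPM in aged vehicle and 29.9 CPM in young ethanol against 28.3 CPM in young vehicle.

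**Figure D5:**
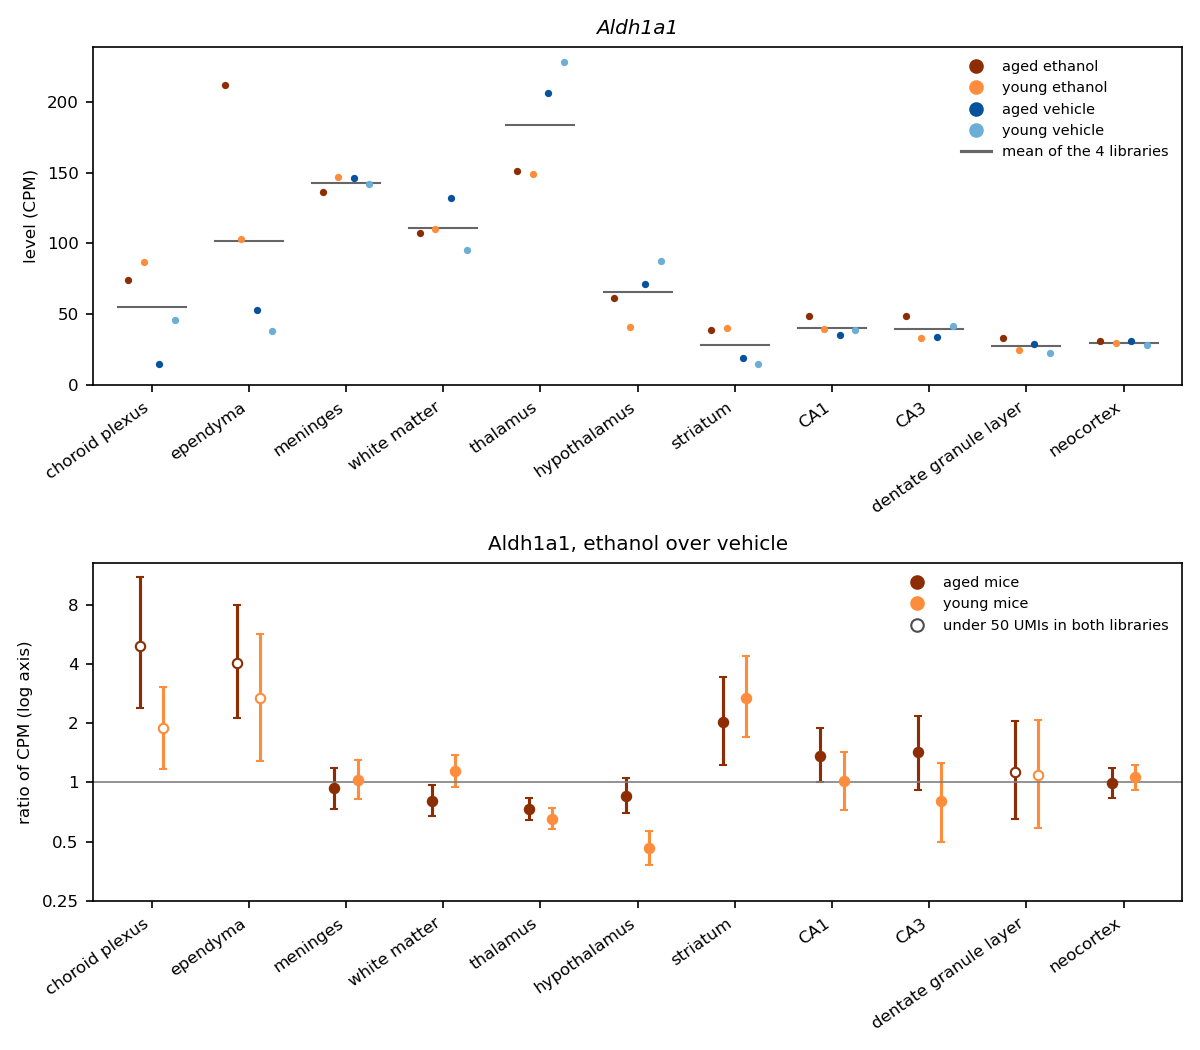
Aldh1a1 by region. The upper panel gives the level in CPM (linear, from 0) in each library with the mean as a grey line, and the lower panel the ratio of ethanol over vehicle (log axis) in aged and young mice with exact 95% counting intervals. Filled points had 50 or more UMIs in at least 1 library of the pair. Striatum lies above 1 and the named thalamus cluster below 1 at both ages.

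The fourth ratio was Acss1 in choroid plexus of aged mice, at 29 CPM (11 UMIs) in aged ethanol against 76 CPM (56 UMIs) in aged vehicle (0.382, 0.18 to 0.736), where 1.86% of genes met the rule as lower. The young pair had 56.4 CPM in young ethanol against 53.4 CPM in young vehicle. Choroid plexus markers in these spots summed to 199000 CPM in aged ethanol against 277000 CPM in aged vehicle, and oligodendrocyte markers to 9910 CPM against 4180 CPM. Their part was not tested, and with regions by marker score the log2 ratio was -0.69, under 2-fold, against -1.39. In CA1, CA3 and the dentate granule layer no member met the rule in any pair. Adh5 in CA1 had 38.5 CPM in aged ethanol against 61.5 CPM in aged vehicle (0.625, 0.466 to 0.835), and in CA3 38.7 CPM in aged ethanol against 61.4 CPM in aged vehicle (0.631, 0.41 to 0.948). In young mice Adh5 had 51.4 CPM in CA1 of young ethanol against 61.5 CPM in young vehicle. No member met the rule for aged over young in any region.

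Of the other pathway genes, Aldh3b2 met the rule in hypothalamus at both ages. It had 18.1 CPM in aged ethanol against 6.41 CPM in aged vehicle (2.82, 1.63 to 5.14) and 18.9 CPM in young ethanol against 6.65 CPM in young vehicle (2.84, 1.69 to 5.03). Of all genes there, 0.696% met the rule as higher in aged mice and 1.12% in young mice. The summed hepatocyte markers in hypothalamus, 1 of 3 of them read in every library, were 14.4 and 13.3 CPM in the aged and young ethanol libraries against 5.28 and 6.65 CPM in the aged and young vehicle libraries, and their part was not tested. Over the whole section Aldh3b2 was lower in the ethanol libraries, at 4.74 and 3.96 CPM in the aged and young ethanol sections against 6.24 and 4.9 CPM in the aged and young vehicle sections. In thalamus of aged mice Acat2, a cytosolic thiolase, had 34.3 CPM in aged ethanol against 15.3 CPM in aged vehicle (2.24, 1.49 to 3.47), and Aldh4a1, of proline breakdown, had 11.9 CPM in aged ethanol against 27.5 CPM in aged vehicle (0.432, 0.283 to 0.657), where 1.67% of genes met the rule as higher and 0.441% as lower. Over the whole section Aldh3a1 had 1.5 CPM in aged ethanol against 0.565 CPM in aged vehicle (2.65, 1.67 to 4.32), and aged over young in vehicle mice was 0.474 (0.288 to 0.759). The shares of all genes were 0.687% higher and 0.105% lower in these comparisons. The young sections had 1.18 CPM in young ethanol and 1.19 CPM in young vehicle, so the aged vehicle section was the 1 that stood apart.

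Shares of spots followed the levels for the least abundant of the well-read genes. After each spot was thinned to 5000 UMIs, an Aldh1b1 UMI was found in 2.98% (exact 95% interval 2.36 to 3.72%) of aged ethanol spots and 3.72% (3.05 to 4.49%) of young ethanol spots, against 4.73% (3.93 to 5.65%) of aged vehicle spots and 5.15% (4.33 to 6.07%) of young vehicle spots. Without thinning the shares were 10.9% and 13.3% in the aged and young ethanol libraries and 13.2% and 15.4% in the aged and young vehicle libraries. Thinning left out 95 and 87 spots of the aged and young ethanol libraries and 231 and 132 spots of the aged and young vehicle libraries.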

How the data were processed

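Visium sections of 4 mouse brain libraries, 1 for each pairing of age and gavage, were analysed. The deposited values are UMI counts per gene and spot, aligned to mm10 with Space Ranger 2.0.0 per the submitters' processing notes, whereas the matrix carries Space Ranger 1.3.1 per the file headers. The annotation release and tissue mask were not given in the sources used here.

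Spots under 500 UMIs were removed (122 of 11064). Scaled log counts of 1552 features, without the 10 genes and 46 pathway genes, gave 30 principal components, 15 neighbours and 29 Leiden clusters at resolution 1 (leidenalg 0.10.2). The features included 101 genes of the region marker lists. From these lists 12 clusters were named and made 11 regions. Counts were summed per region and library (44 sums). Region contrasts used edgeR 4.0.16 quasi-likelihood tests with TMM scaling, filterByExpr and library as a block, in R 4.3.3, with Benjamini-Hochberg adjustment over 11491 genes that took no part in clustering. Regions were still drawn from other genes of the same spots. A call needed an adjusted p under 0.05 and 2-fold. The 4 libraries stand in for replicates, and the animals per library were not given. With library as a block, p-values rest on the spread left after mean differences between libraries are removed. That spread is pooled over the 11 regions and includes any effect of age or gavage that differs between regions.

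Ethanol was compared with vehicle, and aged with young, as ratios of CPM with exact conditional binomial 95% intervals (scipy 1.17.1), which cover counting error only. A ratio was called at 2-fold with 50 UMIs in the library with more. Correlations used log2 of CPM plus 1 for genes with at least 200 UMIs in every library. No p-value was computed for these, since each group had 1 library. Depth was 45995677 to 58305713 UMIs per library, and 3 UMIs in a section stand for 0.0515 to 0.0652 CPM. Code was tested on simulated data. Promoters came from RefSeq (GRCm38.p6), matched by symbol for 9 of the 10 genes.

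The genes, pathway lists and marker lists were chosen with earlier results of these data known. All 10 members are named, with at most 4 called pathway genes per comparison by fold and the 3 most correlated genes per member. Alternatives were DESeq2 1.42.0, total scaling, no filter, no block, other spot and fold limits, marker-score regions and leaving out each library. 1 cluster and 1 correlated gene are not reported here.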

Additional observations from a re-analysis of the deposited data

Results flagged for a closer look

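Aldh1a1 ratios of ethanol over vehicle lay above 1 in striatum and below 1 in thalamus at both ages. Ethanol over vehicle gave log2 ratios of 1.018 in aged and 1.423 in young striatum, and of -0.451 in aged and -0.61 in young thalamus. The thalamus ratios did not reach 2-fold, and with regions by marker score the striatal log2 ratios were 0.94 in aged and 0.98 in young mice, also under 2-fold. The thalamus ratios cover the named thalamus cluster alone. In the unnamed cluster led by Tnnt1 and Prkcd, best matched by thalamus markers, ethanol and vehicle libraries overlapped. It had 265 and 276 CPM in aged and young ethanol against 272 and 255 CPM in aged and young vehicle. The difference between the regions was not tested, since each group had 1 library.

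In hypothalamus, aged over young for Aldh1a1 gave a log2 ratio of 0.587 under ethanol, at 61.3 CPM in aged ethanol against 40.8 CPM in young ethanol, and of -0.296 under vehicle, at 71.6 CPM in aged vehicle against 87.9 CPM in young vehicle. This difference was not tested either.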

How the results depend on the processing

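Over the 12 region contrasts there were 31 members' calls (27 higher, 4 lower). Regions by marker score gave 18 (17 higher, 1 lower), but Adh1, with 3 of the 31 calls, was not tested there. Dropping the fold limit gave 64 (53 higher, 11 lower). Leaving out 1 library gave 22 to 30 calls, with 20 to 27 higher and 2 to 4 lower. The fewest calls came without aged ethanol. DESeq2 gave 31, total scaling 26, no filter 27, spots of at least 2000 UMIs 31, and no replicate block 30, the call lost without the block being Aldh1b1 in striatum (log2 ratio 0.98). Aldh1a1 in dentate over neocortex turned from -0.28 to 1.03 with regions by marker score, the 1 reversal among region contrasts. The cause was not tested.

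Between libraries, 2 ratios each of ethanol over vehicle were called in aged and young mice and 0 of aged over young. A minimum of 20 UMIs gave 5 in aged and 2 in young mice for ethanol over vehicle, and 3 under ethanol and 2 under vehicle for aged over young. A limit of 1.5-fold gave 6 in aged and 7 in young mice for ethanol over vehicle, and 3 under ethanol and 2 under vehicle for aged over young. Scaling without mitochondrial genes and median-of-ratios scaling kept all 4 calls. Marker-score regions also gave 4, but kept 1 (Aldh1a1 in hypothalamus of young mice), lost 3 and added 3 of Aldh1a1, in ependyma at both ages and in choroid plexus of aged mice. Equal weight to each region moved 15 of 32 section ratios beyond their counting interval. Depth limits Adh1 and Cyp2e1 throughout, and most genes in ependyma and choroid plexus, where the ethanol sections had 11 or 12 spots.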

Other observations

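A cluster led by Six3 and Pvalb, which was given no region name, had Aldh1a1 at 186 and 168 CPM in the aged and young ethanol libraries (32 and 43 spots) and at 137 and 89.6 CPM in the aged and young vehicle libraries (4 and 18 spots). A cluster led by Ctxn3 and Cbln1 had 251 and 190 CPM in the aged and young vehicle libraries (43 and 37 spots), and held 2 and 1 spots in the aged and young ethanol libraries. The cluster with habenula genes had 124 and 89.8 CPM in the aged and young ethanol libraries and no spot in either vehicle library. These clusters entered no comparison.

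Aldh1b1 in neocortex had 5.03 CPM in aged ethanol against 9.03 CPM in aged vehicle (ratio 0.557, interval 0.379 to 0.812), and 5.63 CPM in young ethanol against 6.76 CPM in young vehicle (0.832, 0.598 to 1.16). Adh5 in meninges had 51.8 CPM in aged ethanol against 84.2 CPM in aged vehicle (0.615, 0.418 to 0.89), and 64.6 CPM in young ethanol against 66.1 CPM in young vehicle (0.978, 0.697 to 1.37). None of these reached 2-fold.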
